A study of Mus musculus with 2 samples.

Results

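The genes described here are the peroxisome proliferator-activated receptors Ppard, Ppara and Pparg, their partner receptors Rxra and Rxrb, the triglyceride lipase Pnpla2 and its inhibitor G0s2, the hormone-sensitive lipase Lipe, the lipid droplet coat gene Plin2 and the kinase gene Pdk4. They were chosen by name, and all 10 were found by symbol among the 54531 genes of the deposited table. Libraries came from haematopoietic stem cells (HSCs) of mouse bone marrow. By genotype label, the deletion library (deletion HSCs below) is Cdh5-Cre;Angptl2fl/fl, with floxed alleles of Angptl2 and a Cre recombinase under the promoter of the endothelial cadherin gene Cdh5, and its label describes a loss of Angptl2 specific to endothelial cells. The control library (control HSCs) is labelled Angptl2fl/fl, so by genotype both carry floxed Angptl2, but its description and column name give Cdh5 with Cre and no floxed allele, and whether its mice carried Cre is not settled. The Cdh5 promoter is also active in the embryonic haemogenic endothelium from which HSCs arise, and the labels do not say whether these cells kept Angptl2. The sources used here give no age, sex, sort markers or number of mice per library.

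There was 1 library per genotype, so no difference below has a replicate check, no test across samples was possible, and "higher" and "lower" describe these libraries. Values are FPKM (fragments per kilobase of gene model, scaled to library size), a level per length that can be set side by side between genes. Recovered fragment numbers put the depth at 16843100 fragments in deletion HSCs and 17378600 in control HSCs. Intervals are exact 95% intervals for counting error only. In the deletion library 6 fragments was the most frequent number per gene, held by 453 genes, while 295 genes had 1 fragment. In the control library 1 fragment was the most frequent number, held by 1389 genes, and 467 genes had 6. Since fragments may be copies of the same molecule, intervals are also given with all fragment numbers divided by 6, a choice made after seeing the data. HSC markers fixed in a list were present in both libraries, with Kit at 48.8 FPKM in deletion HSCs and 54.3 FPKM in control HSCs, and Procr at 4.68 FPKM in deletion HSCs and 5.33 FPKM in control HSCs. Angptl2 was at 0.179 FPKM in deletion HSCs and 0.265 FPKM in control HSCs, from 19 and 29 fragments, and the 95% interval of its log2 ratio, -1.48 to 0.32, included equality.

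**Figure D1:**
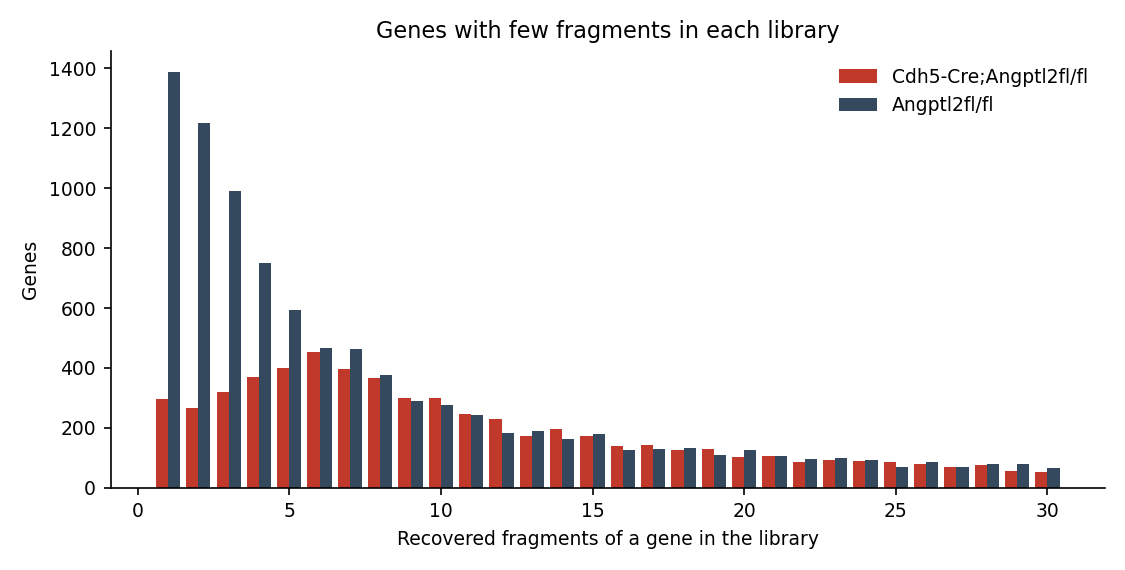
Number of genes (vertical axis) with each recovered number of fragments up to 30 (horizontal axis) in the Cdh5-Cre;Angptl2fl/fl library (left bars) and the Angptl2fl/fl library (right bars). The deletion library peaks at 6 fragments with 453 genes, and the control library is highest at 1 fragment with 1389 genes.

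PPARs are nuclear receptors that bind fatty acids and their derivatives and act as heterodimers with RXRs, typically on direct repeats of AGGTCA separated by a single base. Triglyceride in lipid droplets is broken down in sequence by PNPLA2 (also called ATGL), LIPE (HSL) and monoacylglycerol lipase, and the fatty acids released can serve as fuel or as PPAR ligands. In mouse HSCs, PPARD and fatty acid oxidation have been linked to stem cell maintenance, and ANGPTL2 has been proposed to act through the receptor PIRB on PPARD and G0s2.

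The promoters of Ppard, G0s2 and Plin2 are shown because Ppard and G0s2 are the proposed pathway of ANGPTL2 and had lower values in deletion HSCs, whereas Plin2, a well known PPAR target, was at nearly the same level in both. Each is the RefSeq window (GRCm38.p6) from 250 bases before to 50 after the start site, written 5′ to 3′ on the strand of the gene. Capitals mark AGGTCA (the unit that is repeated in the receptor element, not the full element), GGGCGG (a GC box) and CCAAT, on either strand.
Ppard, chr17:28232504-28232803, plus strand: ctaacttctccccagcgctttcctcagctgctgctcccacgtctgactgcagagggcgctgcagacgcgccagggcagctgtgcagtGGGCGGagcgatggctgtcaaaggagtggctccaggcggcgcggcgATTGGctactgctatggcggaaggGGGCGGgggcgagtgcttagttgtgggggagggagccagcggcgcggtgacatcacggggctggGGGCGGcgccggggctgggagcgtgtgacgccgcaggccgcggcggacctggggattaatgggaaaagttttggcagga
G0s2, chr1:193273139-193273438, minus strand: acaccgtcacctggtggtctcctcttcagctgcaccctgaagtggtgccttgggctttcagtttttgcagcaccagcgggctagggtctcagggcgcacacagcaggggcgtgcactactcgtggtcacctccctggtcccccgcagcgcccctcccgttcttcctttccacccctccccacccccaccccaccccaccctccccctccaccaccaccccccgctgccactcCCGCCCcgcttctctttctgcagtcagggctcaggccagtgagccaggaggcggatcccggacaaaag
Plin2, chr4:86670010-86670309, minus strand: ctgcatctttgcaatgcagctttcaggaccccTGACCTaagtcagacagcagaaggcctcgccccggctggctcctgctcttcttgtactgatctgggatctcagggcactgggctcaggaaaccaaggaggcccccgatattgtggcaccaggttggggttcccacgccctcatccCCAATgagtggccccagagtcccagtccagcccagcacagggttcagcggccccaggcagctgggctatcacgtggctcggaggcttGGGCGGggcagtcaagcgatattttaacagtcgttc
RefSeq promoters were matched for all 10 genes, with 15 windows in all. On both strands, the full repeat of AGGTCA, with any base between the copies, was found in 0 of the 15 and in 0.0396% of all 32851 promoters, and the looser repeat that allows any base at the fourth position of each copy, which contains it, in 0 of 15 and in 0.381% of all. A lone AGGTCA, which is part of the full repeat, was found in 4 windows, those of Plin2, Rxra and Pparg, the last with 2, against 16.3% of all promoters. The GC box GGGCGG was found in 11 windows of 9 genes, against 35.7% of all promoters. CCAAT was found in 5 windows, against 37.4% of all. TATAAA was found in 1 window, a Pparg promoter, against 13.6% of all. These matches describe letters in short windows and say nothing of binding.

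Among the genes with enough signal to compare, differences between genotypes were below 2-fold. Of the 10, 7 had a mean of at least 1 FPKM, each of them above 1 FPKM in both libraries, and 6 of these 7 had lower values in deletion HSCs, by 1.16-fold (Pnpla2) to 1.57-fold (Rxra). Plin2 was nearly equal. As log2 of (FPKM + 1) in deletion HSCs over (FPKM + 1) in control HSCs, a scale that shrinks the differences of low genes, the 7 ran from -0.51 to 0.03 with a median of -0.29. Over all 12325 genes at that minimum the median was -0.011, the quartiles were -0.20 and 0.18, and 51.6% were below 0. On this scale 0 of the 7 were at least 2-fold higher and 0 at least 2-fold lower, where the rule took 2.47% and 3.38% of all genes tested and 0.488% and 0.752% of 10237 protein-coding genes. In either direction together it took 5.86% of all genes and 1.24% of protein-coding genes. At 1.5-fold the counts were again 0 and 0, against 5.74% of all genes higher and 6.08% lower, and 2.54% of protein-coding genes higher and 2.75% lower. Without the pseudocount, Rxra was 1.57-fold and G0s2 1.55-fold lower.

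**Figure D2:**
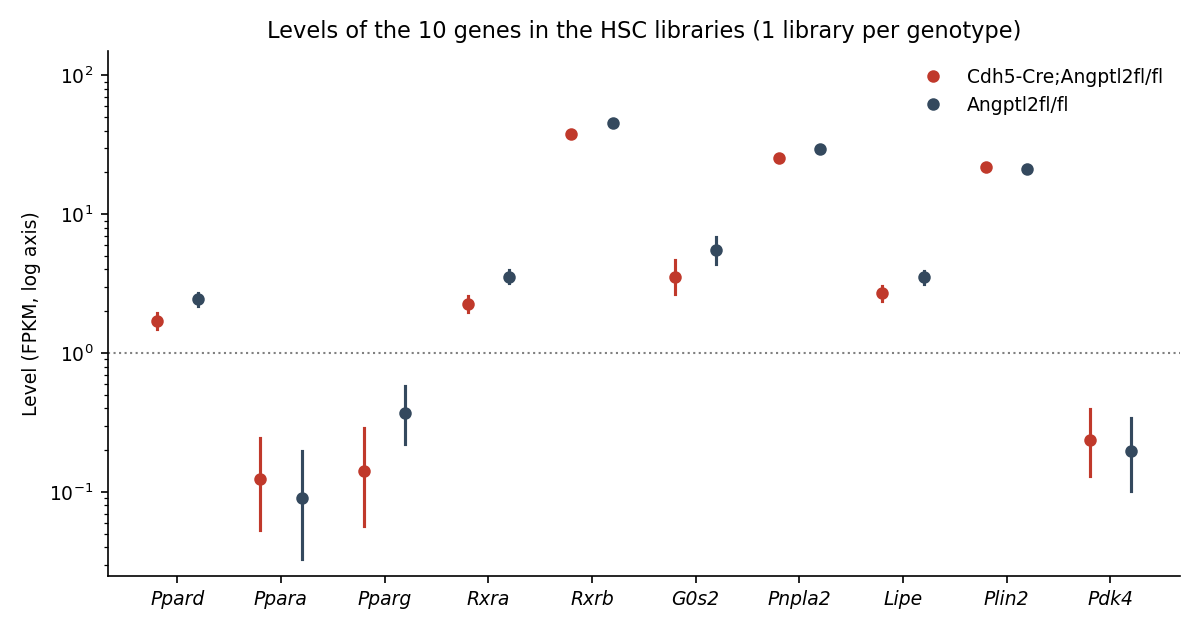
Level in FPKM (vertical log axis) of each of the 10 genes in the Cdh5-Cre;Angptl2fl/fl library (left points) and the Angptl2fl/fl library (right points). Lines are exact 95% counting intervals, absent for Rxrb, and the dotted line is 1 FPKM. Rxrb, Pnpla2 and Plin2 lie above 20 FPKM in both libraries, and Ppara, Pparg and Pdk4 lie below 1 FPKM in both.

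The order of levels was close in the libraries. In the deletion library it ran Rxrb, Pnpla2, Plin2, G0s2, Lipe, Rxra, Ppard, Pdk4, Pparg and Ppara, and in control HSCs Rxra stood above Lipe and Pparg above Pdk4. Counting intervals of neighbours overlapped for G0s2 and Lipe in deletion HSCs, for Lipe and Rxra in both, and for neighbours among Pdk4, Pparg and Ppara in both. The intervals of Pparg and Ppara, which were not neighbours in control HSCs, did not overlap there. Those of Pnpla2 and Plin2 did not overlap in either library. With fragments divided by 6, they overlapped in deletion HSCs, at 22.0 to 28.9 FPKM and 18.9 to 24.8 FPKM. The span of levels within the set was wide: Rxrb exceeded 89.9% of the detected protein-coding genes of deletion HSCs and 92.9% of those of control HSCs, while Ppara exceeded 6.52% and 10.7%.

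Among the receptors, Ppard (chromosome 17, 28232700 to 28301474, plus strand, GRCm38), the widely expressed PPAR, was the main PPAR mRNA of these HSCs. It stood at 1.71 FPKM (interval 1.49 to 1.96) in deletion HSCs and 2.44 FPKM (2.18 to 2.73) in control HSCs, from 217 and 319 fragments. The plain log2 ratio was -0.51, with an interval of -0.77 to -0.26 that reached from -1.16 to 0.13 with fragments divided by 6. Among 1553 protein-coding genes whose mean level lay within 1.5-fold of that of Ppard, 17.5% had a log2(FPKM + 1) ratio at or below its -0.34. A ratio like that of Ppard was thus common among genes of its level. Ppara (chromosome 15, 85734983 to 85802819, plus strand), the PPAR of liver and other fat-burning tissues, was near the limit of detection at 0.124 FPKM in deletion HSCs and 0.0900 FPKM in control HSCs, from 8 and 6 fragments. Pparg (chromosome 6, 115360951 to 115490399, plus strand), the adipocyte PPAR that is also expressed in some macrophages, was at 0.141 FPKM in deletion HSCs and 0.370 FPKM in control HSCs, from 7 and 19 fragments. Its plain ratio was 2.63-fold lower, with a log2 interval of -2.89 to -0.083 that ran from -6.47 to 2.05 with fragments divided by 6. Both genes were below the minimum of 1 FPKM set for counts of genes. Ppard made up 86.6% of the summed PPAR FPKM in deletion HSCs and 84.1% in control HSCs.

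Rxra (chromosome 2, 27676440 to 27762957, plus strand), an RXR with known roles in myeloid cells, had the largest plain fold difference of the 7 genes. Its level was 2.26 FPKM (interval 1.96 to 2.59) in deletion HSCs and 3.55 FPKM (3.18 to 3.95) in control HSCs, from 208 and 337 fragments. The plain log2 ratio of -0.65 had an interval of -0.91 to -0.40, and with fragments divided by 6 it ran from -1.31 to -0.015. Of the 5 lower genes with an interval, Rxra was the only one whose interval excluded equality under that division. Of 1773 protein-coding genes of like level, 8.91% had a log2(FPKM + 1) ratio at or below its -0.48. Rxrb (chromosome 17, 34031812 to 34038399, plus strand), the other widely expressed RXR, was the most abundant of the 10 genes at 38.0 FPKM in deletion HSCs and 45.1 FPKM in control HSCs, 1.19-fold lower. Its values did not fall on whole fragments with the annotation used, so it has no interval. Of 1223 protein-coding genes of like level, 7.28% had a log2(FPKM + 1) ratio at or below its -0.24. Rxrb made up 94.4% of the summed RXR FPKM in deletion HSCs and 92.4% in control HSCs, and Rxrg was listed at 0 in deletion HSCs and at 0.150 FPKM, from 6 fragments, in control HSCs.

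In the lipolysis genes, values were lower for the inhibitor and for both lipases. G0s2 (chromosome 1, 193272161 to 193273217, minus strand), whose short protein binds and inhibits PNPLA2, was at 3.54 FPKM (interval 2.65 to 4.65) in deletion HSCs and 5.48 FPKM (4.37 to 6.80) in control HSCs. The 52 and 83 fragments behind these values gave a plain log2 ratio of -0.63 with an interval of -1.16 to -0.11, widened to -2.04 to 0.70 with fragments divided by 6. Of 2158 protein-coding genes of like level, 5.65% had a log2(FPKM + 1) ratio at or below its -0.51. G0s2 is the shortest gene model of the 10, and it rests on the fewest fragments of the 7. Pnpla2 (chromosome 7, 141455198 to 141460743, plus strand), the lipase of the first step, was 1.16-fold lower at 25.3 FPKM (23.9 to 26.7) in deletion HSCs and 29.2 FPKM (27.8 to 30.7) in control HSCs. Its plain log2 interval of -0.32 to -0.10 reached from -0.48 to 0.057 with fragments divided by 6. The ratio of inhibitor to lipase in FPKM stood at 0.140 (0.106 to 0.185) in deletion HSCs and 0.187 (0.150 to 0.234) in control HSCs, intervals being normal on the log scale. The log2 difference of those ratios was -0.42 with an interval of -0.93 to 0.092, so no shift in the balance of G0s2 to Pnpla2 could be seen beyond counting error.

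Lipe (chromosome 7, 25379527 to 25398710, minus strand), which hydrolyses diacylglycerol in the second step, was at 2.69 FPKM (2.38 to 3.04) in deletion HSCs and 3.52 FPKM (3.17 to 3.90) in control HSCs. From 267 and 360 fragments the plain log2 ratio was -0.39, with an interval of -0.62 to -0.15 that included equality with fragments divided by 6, at -0.98 to 0.20. An antisense gene, 4732471J01Rik, overlaps 15.6% of its exon length and was at 0.274 FPKM in deletion HSCs and 0.213 FPKM in control HSCs. Without strand information the fragments of that stretch cannot be assigned.

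Plin2 (chromosome 4, 86648386 to 86670060, minus strand) encodes perilipin 2, the main droplet coat protein outside adipocytes. Its level was 21.7 FPKM (20.6 to 22.9) in deletion HSCs and 21.3 FPKM (20.1 to 22.5) in control HSCs, from 1285 and 1299 fragments. The plain log2 ratio was 0.030 with an interval of -0.083 to 0.14, which bounds the difference as far as counting error goes. With FPKM rescaled to the same sum in each library, or with ratios centred on genes of like length, its log2(FPKM + 1) ratio turned below 0, at -0.12 and -0.0036. Plin2 made up 77.1% of the summed perilipin FPKM in deletion HSCs and 79.5% in control HSCs, and Plin1, the adipocyte perilipin, was listed at 0 in both. Plin2 over Pnpla2 in FPKM was 0.859 in deletion HSCs and 0.728 in control HSCs, a log2 difference of 0.24 with an interval of 0.085 to 0.39, or -0.14 to 0.62 with fragments divided by 6. Pdk4 (chromosome 6, 5483351 to 5496309, minus strand), a kinase that switches off pyruvate dehydrogenase and a classical PPAR target in muscle, was barely present at 0.237 FPKM in deletion HSCs and 0.197 FPKM in control HSCs. With 14 and 12 fragments, its plain log2 interval ran from -0.95 to 1.51. Pdk4 made up 0.501% of the summed PDK FPKM in deletion HSCs and 0.432% in control HSCs.

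**Figure D3:**
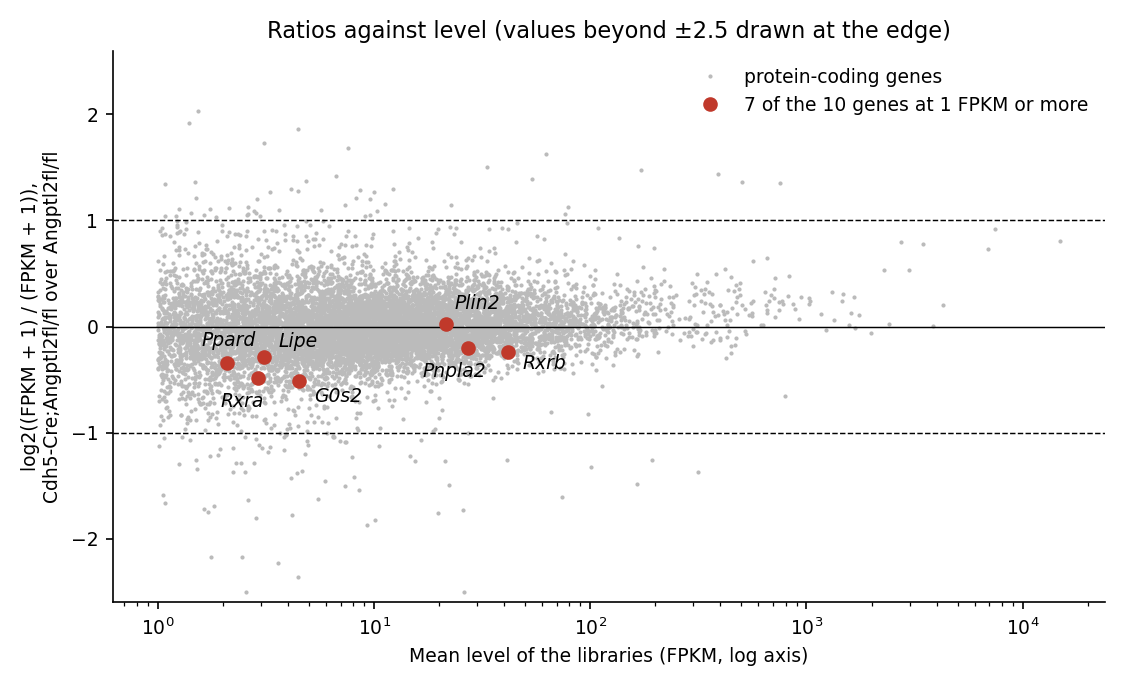
Log2((FPKM + 1)/(FPKM + 1)), Cdh5-Cre;Angptl2fl/fl over Angptl2fl/fl (vertical axis), against the mean level in FPKM (horizontal log axis) for protein-coding genes at a mean of at least 1 FPKM (grey) and the 7 genes described here (red). Dashed lines are 2-fold. All 7 genes lie within the cloud, between -0.51 for G0s2 and 0.03 for Plin2.

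Ratios also varied with the length of the gene model. Among protein-coding genes up to 1 kb of exon the median log2 ratio was 0.17, and it was lower in each longer class down to -0.15 in 522 genes over 12 kb. The share of genes below 0 was 35.0% in the shortest class and 79.3% in the longest. Set against the median of their own length class, Ppard stood at -0.29, Rxra at -0.45, Rxrb at -0.27, Pnpla2 at -0.23 and Lipe at -0.26. G0s2, in the shortest class, stood at -0.68, and 3.01% of protein-coding genes of its level had a length-centred ratio as low or lower. These classes were chosen after seeing the data.

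**Figure D4:**
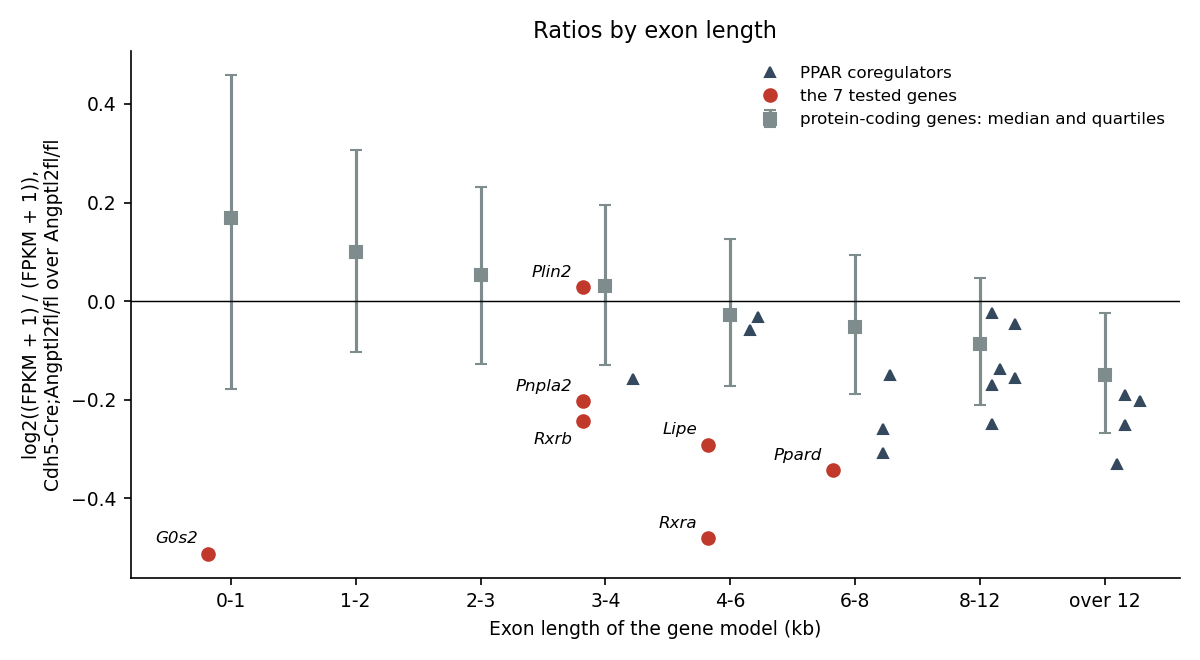
Log2((FPKM + 1)/(FPKM + 1)), Cdh5-Cre;Angptl2fl/fl over Angptl2fl/fl (vertical axis), by exon length in kb (horizontal axis). Grey squares with bars are the median and quartiles of protein-coding genes in each length class, circles are the 7 genes described here and triangles are 16 PPAR coregulators. The class median goes from 0.17 in the shortest genes to -0.15 in the longest, and G0s2 lies at -0.51 in the shortest class.

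Other receptors that pair with RXR, and coregulators of the PPARs, had small differences, mostly below 0, where 52.1% of all protein-coding genes were below 0. Counts and medians of lists are on the log2(FPKM + 1) scale throughout. Of 14 genes in the list of further RXR partners, 7 reached the minimum, 6 of them below 0, with a median of -0.24, and 0 passed 2-fold; 5 of the 7 were below the median of their length class. Rarg, a retinoic acid receptor, was lowest at 1.31 FPKM in deletion HSCs and 2.04 FPKM in control HSCs. Nr4a2, an immediate early nuclear receptor, was at 15.0 FPKM in deletion HSCs and 18.9 FPKM in control HSCs. At the other end Rara, another retinoic acid receptor, was at 5.39 FPKM in deletion HSCs and 4.84 FPKM in control HSCs. The thyroid hormone receptor gene Thra was at 23.0 FPKM in deletion HSCs and 23.1 FPKM in control HSCs, nearly equal. Of 18 PPAR coregulators, all 16 that reached the minimum had a log2 ratio below 0, with a median of -0.16, a range of -0.33 to -0.025 and 0 past 2-fold. Crebbp, an acetyltransferase coactivator, was lowest at 4.38 FPKM in deletion HSCs and 5.77 FPKM in control HSCs, followed by the coactivator Ncoa3 at 4.17 FPKM in deletion HSCs and 5.39 FPKM in control HSCs. The values nearest 0 were those of the coactivator Ncoa1, at 4.09 FPKM in deletion HSCs and 4.18 FPKM in control HSCs, and the corepressor-associated deacetylase Hdac3, at 21.6 FPKM in deletion HSCs and 22.1 FPKM in control HSCs. The coregulators are long genes, with a median exon length of 8828 bases, and set against their length classes 14 of 16 remained below 0 with a median of -0.077. Ppargc1a, the coactivator that drives mitochondrial genes in muscle and brown fat, was at 0.063 FPKM in deletion HSCs and 0.10 FPKM in control HSCs.

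PPAR target genes were spread on both sides of equality. Of 40 genes known as PPAR targets, mostly from liver, muscle or fat, 25 reached the minimum, 11 above 0 and 14 below, with a median of -0.036 and 0 past 2-fold. Angptl4, a secreted lipase inhibitor and a sensitive PPARD target, was highest at 7.15 FPKM in deletion HSCs and 5.04 FPKM in control HSCs. The lowest ratio was that of Acot1, a cytosolic acyl-CoA thioesterase, at 0.697 FPKM in deletion HSCs and 1.51 FPKM in control HSCs. On plain FPKM it was 2.17-fold lower. Next came Cpt1a, the carnitine shuttle enzyme that gates fatty acid entry into mitochondria, at 35.9 FPKM in deletion HSCs and 47.2 FPKM in control HSCs. Acot1 has near-identical paralogs, so its fragments may be split among copies. The listed PPAR targets at this level had no common direction. Whether they respond to PPARD in these HSCs was not tested.

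**Figure D5:**
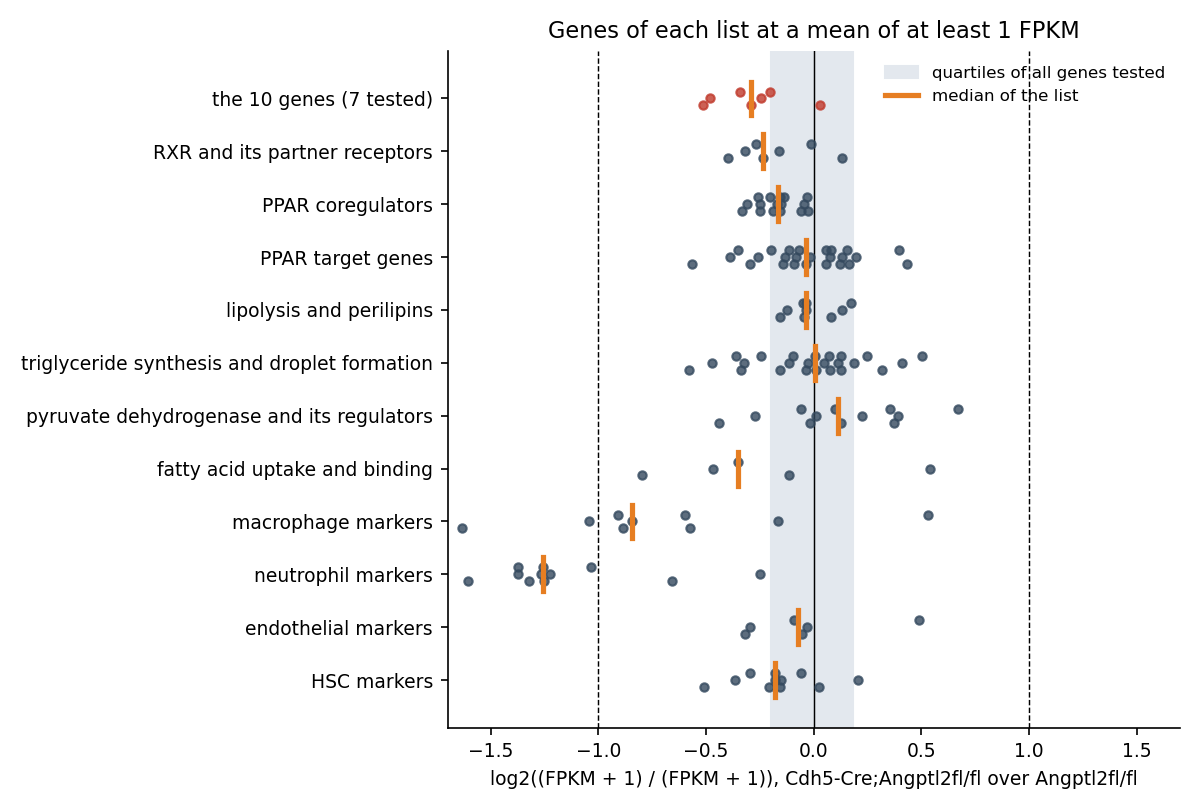
Log2((FPKM + 1)/(FPKM + 1)), Cdh5-Cre;Angptl2fl/fl over Angptl2fl/fl (horizontal axis), for the genes of each list at a mean of at least 1 FPKM (points), with the list median (orange bar), the quartiles of all genes tested (shaded) and 2-fold (dashed). The 7 genes have a median of -0.29, PPAR targets one of -0.036, and macrophage and neutrophil markers -0.84 and -1.26.

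Other genes of lipolysis and of droplet coats stayed close to equality. In that list 9 of 26 genes reached the minimum, 3 above 0 and 6 below, with a median of -0.036, a range of -0.16 to 0.17 and 0 past 2-fold. Abhd5, the coactivator of PNPLA2, was at 3.45 FPKM in deletion HSCs and 3.85 FPKM in control HSCs. Mgll, the lipase of the last step, was at 8.96 FPKM in deletion HSCs and 10.1 FPKM in control HSCs. Plin3, a ubiquitous perilipin, was at 6.26 FPKM and Hilpda, a small inhibitor of PNPLA2 induced by hypoxia, at 8.77 FPKM in deletion HSCs, against 5.44 and 7.93 FPKM in control HSCs. The intervals of Abhd5, Plin3 and Hilpda included equality, at -0.37 to 0.055, -0.0079 to 0.41 and -0.18 to 0.47 on the plain log2 scale. That of Mgll, -0.31 to -0.032, lay below 0, and it ran from -0.53 to 0.18 with fragments divided by 6.

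Triglyceride synthesis genes lay on both sides of equality. Of 30 genes 24 reached the minimum, 13 above 0 and 11 below, with a median of 0.0085 and 0 past 2-fold. Dgat1, which adds the last acyl chain of triglyceride, was at 10.5 FPKM in deletion HSCs and 16.2 FPKM in control HSCs, from 540 and 859 fragments. Dgat2, an unrelated enzyme of the same reaction, was at 3.27 FPKM in deletion HSCs and 2.02 FPKM in control HSCs, from 170 and 108 fragments. The ratio of Dgat1 to Dgat2 was thus 3.20 in deletion HSCs and 8.02 in control HSCs, a log2 difference of -1.32 with an interval of -1.71 to -0.94, or -2.26 to -0.39 with fragments divided by 6. This pair was compared after its values were seen. Gpam, the mitochondrial acyltransferase of the first step, was at 6.04 FPKM in deletion HSCs and 8.75 FPKM in control HSCs, and the droplet enzyme Hsd17b11 was at 13.2 FPKM in deletion HSCs and 9.71 FPKM in control HSCs.

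Around pyruvate dehydrogenase, where Pdk4 was nearly absent, Pdk1 was lower, Pdk3 higher and Pdk2 nearly equal. Pdk2 was at 7.77 FPKM in deletion HSCs and 7.88 FPKM in control HSCs. Pdk1 was at 12.6 FPKM in deletion HSCs and 17.4 FPKM in control HSCs, and Pdk3 at 26.7 FPKM in deletion HSCs and 20.1 FPKM in control HSCs. Pdk1 over Pdk3 was 0.470 in deletion HSCs and 0.864 in control HSCs, a log2 difference of -0.88 with an interval of -1.03 to -0.72, also compared after the values were seen. All 12 genes of the list reached the minimum, 8 above 0 and 4 below, with a median of 0.11 and 0 past 2-fold. Mpc1, a subunit of the mitochondrial pyruvate carrier, was highest at 8.61 FPKM in deletion HSCs and 5.03 FPKM in control HSCs, with 23.1% of its exon length overlapped by an antisense gene. The phosphatase gene Pdp1 was at 1.28 FPKM in deletion HSCs and 1.75 FPKM in control HSCs.

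Fatty acid uptake genes were few at this level. Of 16, 5 reached the minimum, 4 below 0 and 1 above, with a median of -0.35 and 0 past 2-fold. The transporters Slc27a6 and Slc27a4 were lowest, at 0.550 and 5.22 FPKM in deletion HSCs against 1.69 and 7.59 FPKM in control HSCs. On plain FPKM Slc27a6 was 3.08-fold lower, from 23 fragments in deletion HSCs and 73 in control HSCs. Its log2 interval of -2.37 to -0.93 ran from -3.76 to 0.12 with fragments divided by 6. Slc27a6 was below 1 FPKM in deletion HSCs and reached the minimum mean through its control value. Fabp5, a fatty acid binding protein that can deliver ligand to PPARD, was highest at 7.92 FPKM in deletion HSCs and 5.13 FPKM in control HSCs. Cd36, a fatty acid translocase, was at 3.09 FPKM in deletion HSCs and 3.43 FPKM in control HSCs. With a minimum mean of 5 FPKM the median of this list was 0.038.

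Markers of macrophages and neutrophils had larger median differences than any of these lists. For the counts that follow, 3.38% of all genes tested and 0.752% of protein-coding genes were at least 2-fold lower, and 52.1% of protein-coding genes were below 0. Among 12 macrophage markers, 8 of the 9 that reached the minimum were below 0 and 2 were at least 2-fold lower, and their summed level was 26.7 FPKM in deletion HSCs and 47.6 FPKM in control HSCs. Csf1r, the receptor for macrophage growth factor, was at 0.754 FPKM in deletion HSCs and 4.44 FPKM in control HSCs. It has no interval, since its values did not fall on whole fragments. On the other strand Hmgxb3, at 13.5 FPKM in deletion HSCs and 15.3 FPKM in control HSCs, overlaps 15.1% of the exon length of Csf1r. Csf1r and the macrophage markers Adgre1 and Cd5l were below 1 FPKM in deletion HSCs and reached the minimum mean through their control values. C1qa, a complement subunit made by macrophages, was at 3.88 FPKM in deletion HSCs and 9.07 FPKM in control HSCs. Vcam1, an adhesion molecule, was higher, at 5.78 FPKM in deletion HSCs and 3.69 FPKM in control HSCs. Cd163 was at 2.51 FPKM in deletion HSCs and 2.94 FPKM in control HSCs. Of 11 neutrophil markers, all were below 0, from -1.60 to -0.25, and 9 were at least 2-fold lower, with a summed level of 1454 FPKM in deletion HSCs and 2560.0 FPKM in control HSCs. Of 10 adipocyte markers, 7 were listed at 0 in both libraries, among them Adipoq, Lep and Plin1, and the list summed to 0.267 FPKM in deletion HSCs and 0.860 FPKM in control HSCs. Endothelial markers had 5 of 6 below 0 with a median of -0.073, and Vwf was highest at 0.49. Cdh5, below the minimum, was listed at 0 in deletion HSCs and at 0.027 FPKM, from 2 fragments, in control HSCs. HSC markers had 9 of 11 below 0 with a median of -0.18, from Ly6a at 2.86 FPKM in deletion HSCs and 4.49 FPKM in control HSCs to Ctnnal1 at 1.57 FPKM in deletion HSCs and 1.22 FPKM in control HSCs. In a bulk library, fewer cells of a type and less RNA per cell cannot be told apart. Mitochondrially encoded genes made up 13.7% of the summed FPKM in deletion HSCs and 8.91% in control HSCs. The part of macrophages, neutrophils, mitochondrial RNA and gene length in the lower values of Rxra, Pparg, Ppard and G0s2 was not tested.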

How the data were processed

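The authors deposited FPKM values for each gene in 2 columns, 1 per library, from 150 bp paired reads. The submitters' processing notes list Bowtie 0.12.2 and mm8 without saying what each was for. The program that counted fragments and its gene models are not given in the sources. FPKM depends on the gene model and on the library total. Exon lengths, types and positions were taken from GENCODE M21 on GRCm38. FPKM multiplied by exon length came within 0.02 of whole fragments for 96.1% of genes above 0 in deletion HSCs and 96.5% in control HSCs, which gave depths and fragment numbers for 9 of the 10 genes. The notes' build was therefore not used for positions.

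Ratios used a pseudocount of 1 FPKM and genes at a mean of at least 1 FPKM. Intervals are exact (Poisson for levels, Clopper-Pearson for ratios), in Python 3.11.15 with scipy 1.17.1. The computation was tested on simulated data. All 10 genes were named whatever their values, and from each other list the 2 highest and 2 lowest ratios, any gene past 2-fold, and further genes chosen after their values were seen. Not every gene the rule selects is printed, and 1 PPAR target is not reported here. Members and lists were chosen with earlier results of these data known. Alternatives were other pseudocounts, minimum levels, scalings and thresholds.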

Additional observations from a re-analysis of the deposited data

How the results depend on the processing

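With 1 library per genotype, no library could be left out. No paired analysis was possible because each genotype has a single library. Of the genes that reached the minimum, 7 in most settings, 0 were past the threshold in either direction under the alternatives run, at 1.5-fold and 4-fold too. Ppara, Pparg and Pdk4 were counted only in the setting with no minimum and a pseudocount of 1, and Pparg was 2.63-fold lower on plain FPKM. The median log2 ratio of the genes of the set counted in each setting ran from -0.47, with FPKM rescaled to the same sum in each library, to -0.18 with a pseudocount of 5. The median over all genes was -0.15 after that rescaling, against -0.011. Ppard, Rxra, Rxrb, G0s2, Pnpla2 and Lipe were below 0 under each of the 10 or 11 alternatives that gave them a value, and Plin2 was below 0 in 2 of 11. The counts over all genes, 305 higher and 417 lower, became 471 higher with a pseudocount of 0.1 (599 lower), 74 and 118 with a pseudocount of 5, 83 and 97 at a minimum mean of 5 FPKM, 428 and 683 with no minimum, 708 and 749 at 1.5-fold, 75 and 165 at 4-fold, and 50 and 77 in protein-coding genes, an alternative added after seeing the data. They were 420 and 389 with no pseudocount and 239 and 461 with ratios centred on genes of like length, both also added after seeing the data, and 338 and 590 after rescaling to the same sum. The fatty acid uptake list turned from a median of -0.35 to 0.038 at a minimum mean of 5 FPKM, where fewer genes remain. Depth limits Ppara, Pparg and Pdk4, with at most 19 fragments in either library.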

Other observations

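Several lipid genes below the minimum level of 1 FPKM had few fragments in 1 library and more in the other. They were picked after their values were seen. Fewer genes of any kind were detected in the deletion library, with 18217 above 0 in deletion HSCs and 21891 in control HSCs. Genes with 1 fragment numbered 295 in deletion HSCs and 1389 in control HSCs. Whether the low lipid genes differ in this from other genes of like level was not tested. Lpl, the lipoprotein lipase that macrophages and adipocytes secrete, was at 0.0397 FPKM in deletion HSCs and 0.566 FPKM in control HSCs, from 7 and 103 fragments. Its plain log2 ratio of -3.83 had an interval of -5.18 to -2.74, and of -8.58 to -1.31 with fragments divided by 6. Nr1h3, which encodes the oxysterol receptor LXR alpha of macrophages and liver, had 1 fragment in deletion HSCs and 22 in control HSCs, a plain log2 ratio of -4.41 with an interval of -9.78 to -1.79. Vnn1, a pantetheinase and PPARA target of liver, had 0 fragments in deletion HSCs and 20 in control HSCs. Its plain log2 interval lay wholly below -2.26.

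Crabp2, a retinoic acid carrier, had 19 fragments in deletion HSCs and 2 in control HSCs, with a plain log2 interval of 1.24 to 6.44. Ces1d, a carboxylesterase that hydrolyses triglyceride, had 19 fragments in deletion HSCs and 3 in control HSCs, with an interval of 0.94 to 5.11. With fragments divided by 6 the intervals of Nr1h3, Vnn1, Crabp2 and Ces1d all included equality. Of the 9 macrophage markers that reached the minimum, 8 were below 0, where 52.1% of protein-coding genes were, with Csf1r and C1qa lowest and Vcam1 above 0. The part of macrophages in the values of Lpl and Nr1h3 was not tested.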
